A study of Caenorhabditis elegans with 12 samples.

Results

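Potassium channel genes were examined in whole Caenorhabditis elegans worms by RNA-seq at day 10. The set holds every gene of the count table whose WormBase symbol starts with twk, kvs, kqt, irk, slo, shk, shl or kcnl and ends in a number, together with egl-2, egl-36, unc-103, exp-2, unc-58 and sup-9. This gives 69 of 46739 genes. By family they are 46 tandem pore (TWK type) genes, 14 voltage-gated genes, 6 ion-activated genes (SLO and SK type) and 3 inward rectifier genes. Every one was counted in at least 1 library, and 68 passed the filter on low counts and were tested, the exception being twk-44.

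The 12 libraries come from 4 genotypes with 3 biological replicates each: spr-4;spr-3;daf-2, called triple-mutant worms below; daf-2; spr-4;spr-3, called double-mutant worms below; and N2, the wild type and the background of all strains. The daf-2 gene encodes the insulin/IGF-1 receptor. The products of spr-4 and spr-3 are zinc finger proteins, and the series title names the vertebrate repressor REST. Each RNA sample came from 100 whole worms kept at 20 °C, so all tissues are mixed. Which alleles the strains carry is not given in the sources used here.

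Potassium channels let potassium ions leave the cell, which pulls the membrane towards rest and shortens or prevents electrical activity. Tandem pore channels carry a steady leak current and set the resting potential. Voltage-gated channels open on depolarization and end action potentials, SLO and SK type channels open when intracellular calcium or other ions rise, and inward rectifiers hold the membrane near rest. In C. elegans the tandem pore family is much larger than in mammals, and the roles of many of its members are not described.

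Library totals ran from 11892808 counts in daf-2 replicate 2 to 46493665 counts in daf-2 replicate 3. Levels are given as CPM (counts scaled to a library of 1e6) of the library size scaled by TMM, and 3 counts equal 0.0614 to 0.242 CPM. Replicate libraries differed by far more than counting noise, with a chi-square per degree of freedom of at least 21.7. The genes named in the genotypes kept mRNA. spr-4 ranged over 21.8 to 40.3 CPM in triple-mutant worms, 44.5 to 57.8 CPM in daf-2, 36.4 to 41.2 CPM in double-mutant worms and 46.1 to 76.8 CPM in N2. spr-3 ranged over 37.9 to 42.5, 21.2 to 25.2, 26.0 to 30.5 and 21.2 to 24.4 CPM in the same order, and daf-2 mRNA over 56.4 to 70.8, 62.7 to 72.6, 45.5 to 58.2 and 35.0 to 38.7 CPM. Without the alleles these levels do not check the labels. Markers of neurons, body wall muscle, pharyngeal muscle, intestine, hypodermis, germline and sperm were all present, except that the cuticle collagen rol-6 was at 0 in double-mutant worms.

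Most potassium channel mRNAs were scarce. Averaged over the 12 libraries, 12 genes reached 10 CPM, 47 lay between 1 and 10 CPM and 10 lay under 1 CPM, and 9 genes were at 0 in at least 1 library. To compare genes, CPM was divided by exon length. On this per-kilobase scale twk-5 (chromosome II, 11483215 to 11485300, minus strand, WBcel235) was the highest member in every genotype, at 55.5 ± 6.92 in triple-mutant worms, 62.9 ± 3.52 in daf-2, 51.7 ± 4.30 in double-mutant worms and 61.0 ± 8.95 CPM per kb in N2 (SD, n = 3 each). It passed the test in no comparison. twk-31 (chromosome III, 11410678 to 11424661, plus strand) was second in triple-mutant worms at 27.1 ± 1.51, in double-mutant worms at 24.9 ± 4.94 and in N2 at 41.4 ± 2.24 CPM per kb. In daf-2 it was the next one down, at 14.8 ± 0.675 CPM per kb, below twk-46 at 17.0 ± 2.11 CPM per kb, a gap about as large as the SD of twk-46.

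Below these, twk-6 had 17.0 ± 1.18 CPM per kb in triple-mutant worms, 8.10 ± 1.24 in daf-2, 21.6 ± 6.12 in double-mutant worms and 21.5 ± 0.334 in N2. In N2 it did not stand apart from twk-46 (19.8 ± 4.02 CPM per kb) or twk-45 (18.2 ± 4.35 CPM per kb), since their SDs span the gaps. Among the better known channels, sup-9, shk-1 and slo-2 were the most abundant per length, at 8.49, 6.74 and 5.91 CPM per kb averaged over the 12 libraries. sup-9 encodes a TASK-like leak channel of muscle, shk-1 the Shaker channel and slo-2 a relative of the mammalian Slack channel. slo-1, the calcium-activated BK channel, averaged 1.56 CPM per kb.

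**Figure D1:**
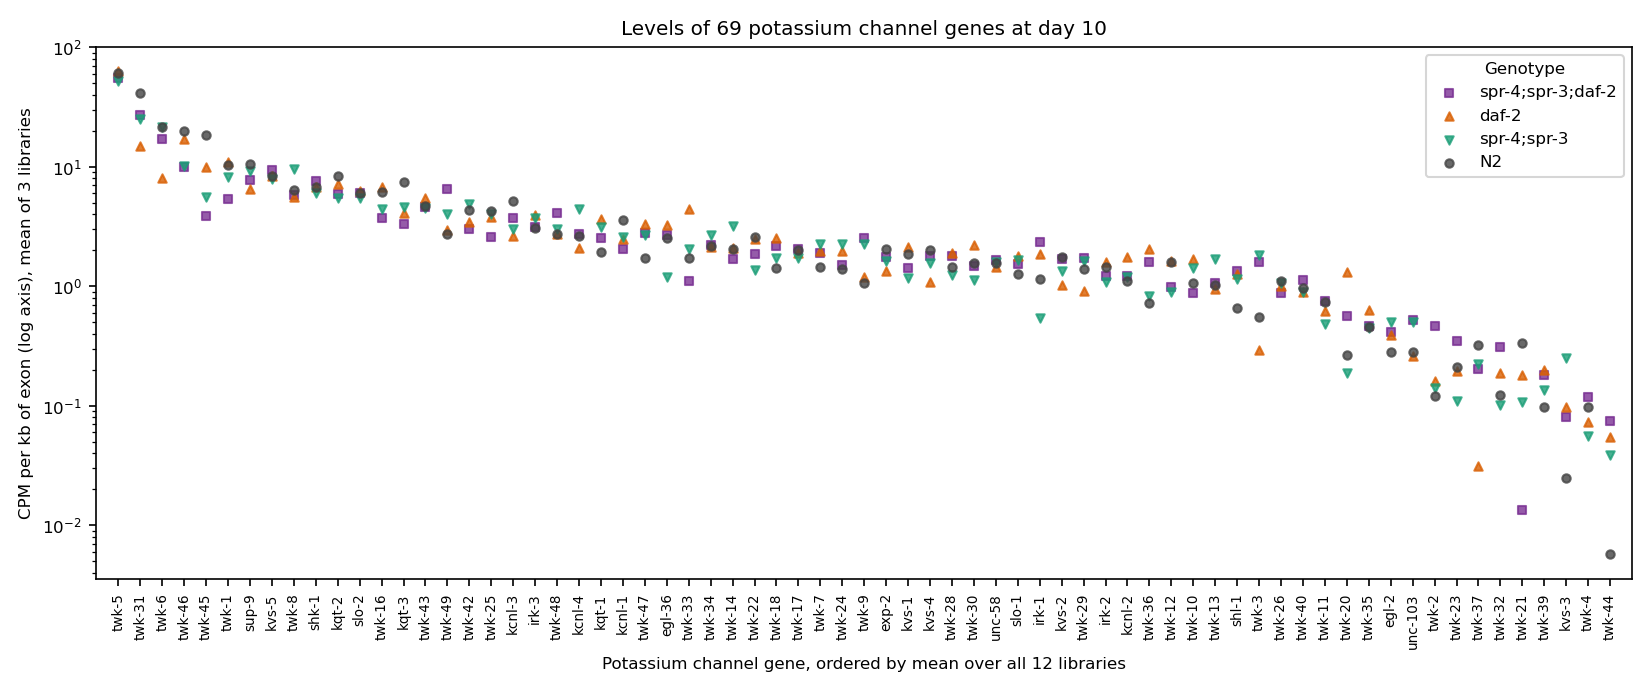
Level of each of the 69 potassium channel genes in CPM per kb of exon (vertical, log axis), genes ordered by their mean over the 12 libraries; each point is the mean of 3 libraries of 1 genotype. twk-5 leads in all 4 genotypes (51.7 to 62.9 CPM per kb), and twk-31 follows except in daf-2, where it is at 14.8 CPM per kb.

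The daf-2 mutation alone was read from daf-2 against N2. Of the 68 members tested, 3 had higher and 6 lower levels in daf-2 than they had in N2 at an edgeR adjusted p below 0.05, which is 13.2% of them against 20.6% of all 18342 genes tested (9.58% higher and 11% lower). The median log2 change (log2 of the daf-2 level over the N2 level) was 0.00 for the members and 0.06 for all genes. The libraries of daf-2 and N2 did not overlap for 20 members (29.4%), against 39.9% of all genes. Of the 9 members that passed, 5 are tandem pore genes, 3 voltage-gated and 1 of the SK type.

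twk-31 had 58.6, 58.7 and 54.2 CPM in the daf-2 libraries, against 157, 169 and 152 CPM in N2. All daf-2 libraries lay far below all N2 libraries. The log2 change was -1.48 ± 0.14 (SE; edgeR adjusted p = 1.42e-06). twk-6 (chromosome III, 4742920 to 4744719, plus strand) had 11.03, 8.29 and 8.90 CPM in daf-2, against 25.1, 24.6 and 25.3 CPM in N2, a log2 change of -1.40 ± 0.19 (edgeR adjusted p = 6.5e-05). The N2 libraries were tight and none reached down to daf-2. twk-45 (chromosome III, 2793323 to 2801900, minus strand) had 18.6, 17.0 and 17.8 CPM in daf-2, against 25.6, 31.7 and 41.1 CPM in N2. Its log2 change was -0.88 ± 0.21 (edgeR adjusted p = 0.00634), with N2 more spread than daf-2.

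Outside the tandem pore family, kcnl-3, of the SK type, had 5.68, 4.83 and 7.30 CPM in daf-2, against 13.4, 10.8 and 11.4 CPM in N2 (log2 change -0.98 ± 0.23, edgeR adjusted p = 0.00551). kqt-3, a KCNQ type channel, had 8.32, 10.4 and 9.13 CPM in daf-2, against 13.7, 17.5 and 19.04 CPM in N2 (log2 change -0.86 ± 0.27, edgeR adjusted p = 0.0332). exp-2, the voltage-gated channel that ends the action potential of the pharynx, averaged 6.62 ± 0.704 CPM in daf-2 and 10.2 ± 0.626 CPM in N2 (SD, n = 3 each; edgeR adjusted p = 0.0411). In each of these 3 genes the highest daf-2 library lay below the lowest N2 library. Summed markers of pharyngeal muscle were at 88.4 to 154 CPM in daf-2, against 147 to 241 CPM in N2, with 3 of 5 markers lower, and their part in the result for exp-2 was not tested. Summed intestinal markers were at 532 to 640 CPM in daf-2, against 1659 to 2333 CPM in N2, with 5 of 10 markers lower. Summed germline markers were at 1613 to 1795 CPM in daf-2, against 2979 to 3629 CPM in N2, with 4 of 8 markers lower and 1 higher, and summed sperm markers at 153 to 167 CPM, against 177 to 216 CPM in N2, with 1 of 8 lower and 1 higher. Summed body wall muscle markers overlapped, at 1855 to 2346 CPM in daf-2 and 2095 to 2608 CPM in N2 (3 of 10 higher, 1 lower). Summed neuronal markers also overlapped, at 487 to 520 CPM in daf-2 and 517 to 549 CPM in N2 (2 of 16 higher, 1 lower). The part of these tissue differences in the channel results was not tested either.

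The 3 genes that were higher in daf-2 included another KCNQ type gene. kqt-1 had 11.1, 10.1 and 8.49 CPM in daf-2, against 5.52, 5.11 and 5.10 CPM in N2 (log2 change 0.91 ± 0.23, edgeR adjusted p = 0.00837). kqt-1 and kqt-3, both of the KCNQ type, thus differed from N2 in opposite directions. The remaining kqt gene, kqt-2, did not pass (log2 change -0.21 ± 0.26, edgeR adjusted p = 0.617), and its libraries overlapped. twk-33 (chromosome V, 17710042 to 17714377, minus strand) had 9.50, 7.97 and 8.96 CPM in daf-2, against 3.30, 3.67 and 3.40 CPM in N2 (log2 change 1.35 ± 0.39, edgeR adjusted p = 0.0203). twk-47 averaged 5.10 ± 0.239 CPM in daf-2 and 2.69 ± 0.738 CPM in N2 (SD, n = 3 each; edgeR adjusted p = 0.0397). Of the kqt-1 exons, 371 of 2717 bp are shared with clec-266 on the other strand, a gene at 55.6 CPM, and without strand information those reads cannot be told apart. clec-266 itself had a log2 change of 0.31 (edgeR adjusted p = 0.461).

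The calls for twk-31, twk-6, twk-45, kcnl-3 and kqt-1 were kept when any 1 of the 12 libraries was left out. That for kqt-3 was lost without any of the 3 daf-2 libraries or without N2 replicate 2 or 3 (edgeR adjusted p 0.0528 to 0.115), and that for twk-33 without daf-2 replicate 1 or 3 or N2 replicate 1 or 3 (edgeR adjusted p 0.0604 to 0.0649). That for exp-2 was lost without triple-mutant replicate 1, daf-2 replicate 1 or 3 or any N2 library (edgeR adjusted p 0.0518 to 0.132), and that for twk-47 without triple-mutant replicate 1, any daf-2 library or N2 replicate 2 or 3 (edgeR adjusted p 0.0514 to 0.144). The column names of the count table end in 1 or 2, a mark that the sources used here do not explain. All daf-2 libraries end in 2 and among the N2 libraries replicate 1 does. With this ending as a term in the fit, twk-45 (edgeR adjusted p = 0.0727), kqt-3 (edgeR adjusted p = 0.198), twk-33 (edgeR adjusted p = 0.131), twk-47 (edgeR adjusted p = 0.122) and exp-2 (edgeR adjusted p = 0.0984) did not pass, while twk-31, twk-6, kcnl-3 and kqt-1 did. Without the filter on low counts exp-2 (edgeR adjusted p = 0.0956) and twk-47 (edgeR adjusted p = 0.0661) did not pass. With the replicate number as a block over all 12 libraries, exp-2 (edgeR adjusted p = 0.0598) did not pass. In a fit of the daf-2 and N2 libraries alone, 13 members passed, or 14 with the block, and exp-2 passed in both (edgeR adjusted p = 0.0383 and 0.0332). The share of all genes called in that fit is not given here, so these counts are not read as a result about the channels.

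**Figure D2:**
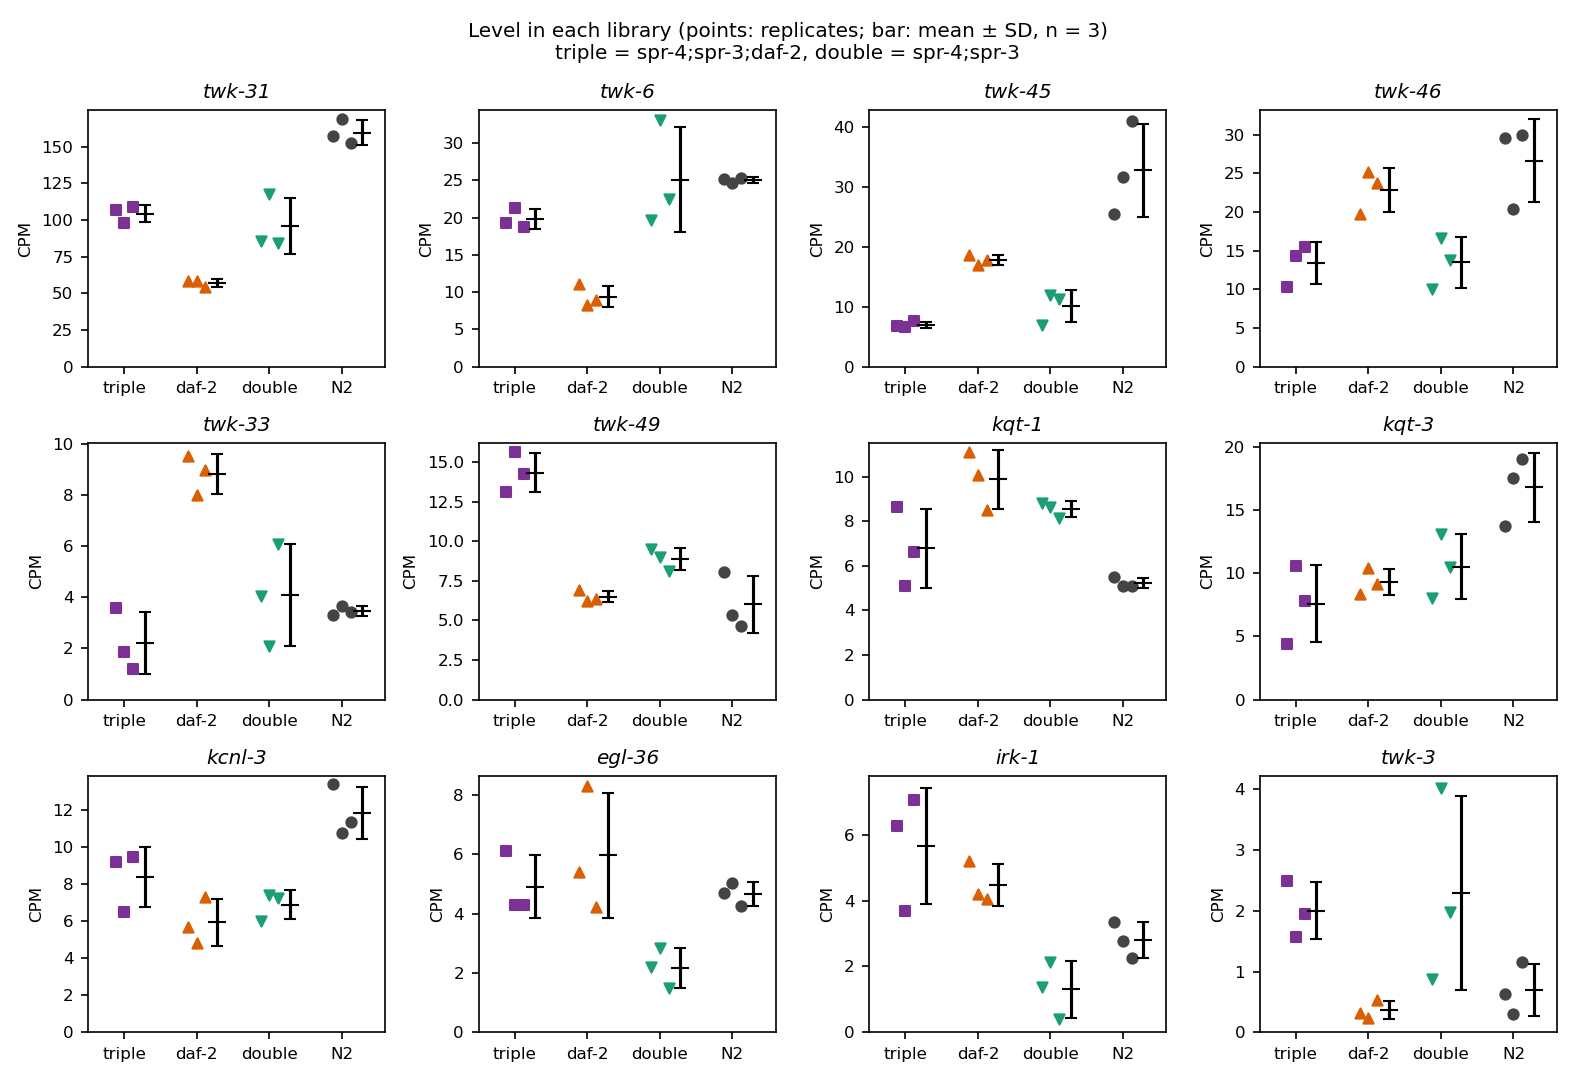
CPM of 12 members in each library (vertical axis, starting at 0), with the genotypes side by side; points are replicates and the black bars give mean ± SD of 3 libraries. The daf-2 libraries of twk-31 (54.2 to 58.7 CPM) lie below all other libraries. For twk-45 the triple-mutant libraries are at 6.57 to 7.61 CPM.

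The effect of the spr-4 and spr-3 mutations in the daf-2 background was read from triple-mutant worms against daf-2. All 9 members that passed belong to the tandem pore family: 4 were higher and 5 lower in triple-mutant worms, 13.2% of the 68 members against 13.4% of all genes (6.77% higher and 6.65% lower). The share of channel genes called was close to the share of all genes. The median log2 change was -0.13 for the members and -0.01 for all genes. The libraries did not overlap for 20 members (29.4%), against 36% of all genes.

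Of the 9 members called in daf-2 against N2, the 2 with the lowest log2 changes were higher in triple-mutant worms. twk-31 had 107, 97.8 and 109 CPM in triple-mutant worms, against 58.6, 58.7 and 54.2 CPM in daf-2 (log2 change 0.87 ± 0.14, edgeR adjusted p = 0.000691). twk-6 had 19.3, 21.3 and 18.7 CPM in triple-mutant worms, against 11.03, 8.29 and 8.90 CPM in daf-2 (log2 change 1.07 ± 0.19, edgeR adjusted p = 0.00163). In neither gene did a triple-mutant library reach down to daf-2. These 2 results share the daf-2 libraries with the comparison to N2, so the opposite signs are not independent of each other.

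twk-49 (chromosome II, 6492785 to 6499167, minus strand) had 13.1, 15.6 and 14.2 CPM in triple-mutant worms, against 6.89, 6.20 and 6.38 CPM in daf-2, a log2 change of 1.14 ± 0.22 (edgeR adjusted p = 0.00267). Its exons share 608 of 2219 bp with T28D9.1 on the other strand, a gene at 100.3 CPM, whose own log2 change was 0.09 (edgeR adjusted p = 0.765). twk-3 was scarce, with 2.49, 1.58 and 1.94 CPM in triple-mutant worms, against 0.32, 0.24 and 0.53 CPM in daf-2 (log2 change 2.36 ± 0.63, edgeR adjusted p = 0.0199). These daf-2 values of twk-3 rest on 9, 3 and 26 counts, so replicate 2 was at the level of 3 counts.

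Among the genes that were lower in triple-mutant worms, twk-33 had 3.56, 1.86 and 1.197 CPM, against 9.50, 7.97 and 8.96 CPM in daf-2 (log2 change -2.02 ± 0.40, edgeR adjusted p = 0.00338). Its highest triple-mutant library lay well under the lowest daf-2 library. twk-45 had 6.71, 6.57 and 7.61 CPM in triple-mutant worms, against 18.6, 17.0 and 17.8 CPM in daf-2 (log2 change -1.36 ± 0.21, edgeR adjusted p = 0.000681). Both groups of twk-45 were tight and far apart. twk-46 (chromosome V, 19060173 to 19067034, plus strand) had 10.3, 14.3 and 15.5 CPM in triple-mutant worms, against 19.7, 25.1 and 23.8 CPM in daf-2 (log2 change -0.77 ± 0.22, edgeR adjusted p = 0.0268). twk-1 averaged 8.82 ± 3.21 CPM in triple-mutant worms and 17.97 ± 3.34 CPM in daf-2 (edgeR adjusted p = 0.0168), and twk-16 averaged 6.42 ± 1.28 and 11.8 ± 2.82 CPM (edgeR adjusted p = 0.0206; SD, n = 3 each).

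The calls for twk-31, twk-6, twk-49, twk-33 and twk-45 were kept without any 1 library. twk-3 was lost without triple-mutant replicate 1 or daf-2 replicate 1 or 2 (edgeR adjusted p 0.0643 to 0.0777), and twk-46 without triple-mutant replicate 1 or 2 or daf-2 replicate 2 or 3 (edgeR adjusted p 0.0509 to 0.119). twk-1 was lost without triple-mutant replicate 1 or 3 or daf-2 replicate 2 (edgeR adjusted p 0.0751 to 0.0784), and twk-16 without triple-mutant replicate 1 or 2 or daf-2 replicate 2 (edgeR adjusted p 0.0678 to 0.109). Summed body wall muscle markers were higher in triple-mutant worms, at 2970 to 3356 CPM against 1855 to 2346 CPM in daf-2, although 0 of 10 markers passed the edgeR test in either direction (3 higher and 2 lower at an unadjusted p under 0.05, and 2 lower by DESeq2). Summed germline markers were at 2565 to 3053 CPM against 1613 to 1795 CPM, with 4 of 8 markers higher. Summed sperm markers were at 187 to 221 CPM in triple-mutant worms, against 153 to 167 CPM in daf-2 (3 of 8 higher, 1 lower), and summed hypodermal markers at 59.8 to 80.1 CPM, against 91.1 to 141.9 CPM in daf-2 (1 of 4 tested lower). Summed neuronal markers overlapped, at 471 to 508 CPM against 487 to 520 CPM, with 2 of 16 markers lower. The part of these tissue differences in the channel results was not tested, and in whole worms fewer cells of a type and less RNA per cell cannot be told apart.

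The effect of the same mutations in the wild-type background was read from double-mutant worms against N2. Of the members tested, 6 were lower in double-mutant worms, 8.82% against the 11.7% of all genes called in either direction (5.07% higher and 6.6% lower), and 0 were higher by edgeR, although 8 were higher at an unadjusted p under 0.05 and DESeq2 called 2 of them. The median log2 change was -0.07 for the members and 0.04 for all genes. The libraries did not overlap for 17 members (25%), against 28.5% of all genes.

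Among these 6, twk-45 had the largest change, with 7.02, 11.9 and 11.4 CPM in double-mutant worms, against 25.6, 31.7 and 41.1 CPM in N2, a log2 change of -1.70 ± 0.21 (edgeR adjusted p = 0.000146). twk-46 had 9.99, 16.7 and 13.7 CPM in double-mutant worms, against 29.6, 20.4 and 29.9 CPM in N2 (log2 change -0.98 ± 0.22, edgeR adjusted p = 0.00927). twk-31 had 86.0, 118 and 84.2 CPM in double-mutant worms, against 157, 169 and 152 CPM in N2 (log2 change -0.73 ± 0.14, edgeR adjusted p = 0.00326). In all 3 genes every double-mutant library lay below every N2 library.

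The other 3 calls were less steady. kcnl-3 had 6.01, 7.44 and 7.23 CPM in double-mutant worms, against 13.4, 10.8 and 11.4 CPM in N2 (log2 change -0.78 ± 0.22, edgeR adjusted p = 0.0345). egl-36, the Shaw type channel first known from egg-laying mutants, had 2.201, 2.84 and 1.50 CPM in double-mutant worms, against 4.69, 5.05 and 4.25 CPM in N2 (log2 change -1.10 ± 0.32, edgeR adjusted p = 0.0365). twk-22 averaged 3.86 ± 1.19 CPM in double-mutant worms and 7.35 ± 0.306 CPM in N2 (SD, n = 3 each; edgeR adjusted p = 0.0429). kcnl-3 was lost without double-mutant replicate 1 or 3 or N2 replicate 1 or 3 (edgeR adjusted p 0.0796 to 0.127). egl-36 was lost without daf-2 replicate 1, double-mutant replicate 1 or 3 or any N2 library (edgeR adjusted p 0.05003 to 0.141). twk-22 was lost without triple-mutant replicate 3, daf-2 replicate 1, double-mutant replicate 1 or 3 or any N2 library (edgeR adjusted p 0.0522 to 0.157), and also with the column ending as a term (edgeR adjusted p = 0.0509).

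Low counts limit the scarcer members in this comparison. kvs-3 had 11, 18 and 16 counts in double-mutant libraries, against 0, 0 and 4 counts in N2, and its log2 change of 3.21 ± 1.43 did not pass (edgeR adjusted p = 0.161). Summed intestinal markers were lower in double-mutant worms, at 1015 to 1625 CPM against 1659 to 2333 CPM in N2 with 3 of 10 markers lower. Summed body wall muscle markers were at 1066 to 2027 CPM in double-mutant worms, against 2095 to 2608 CPM in N2 (2 of 10 lower, 1 higher), and summed hypodermal markers at 69.3 to 106 CPM, against 127 to 224 CPM in N2 (1 of 4 tested lower). The part of these 3 tissues in the channel results was not tested.

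**Figure D3:**
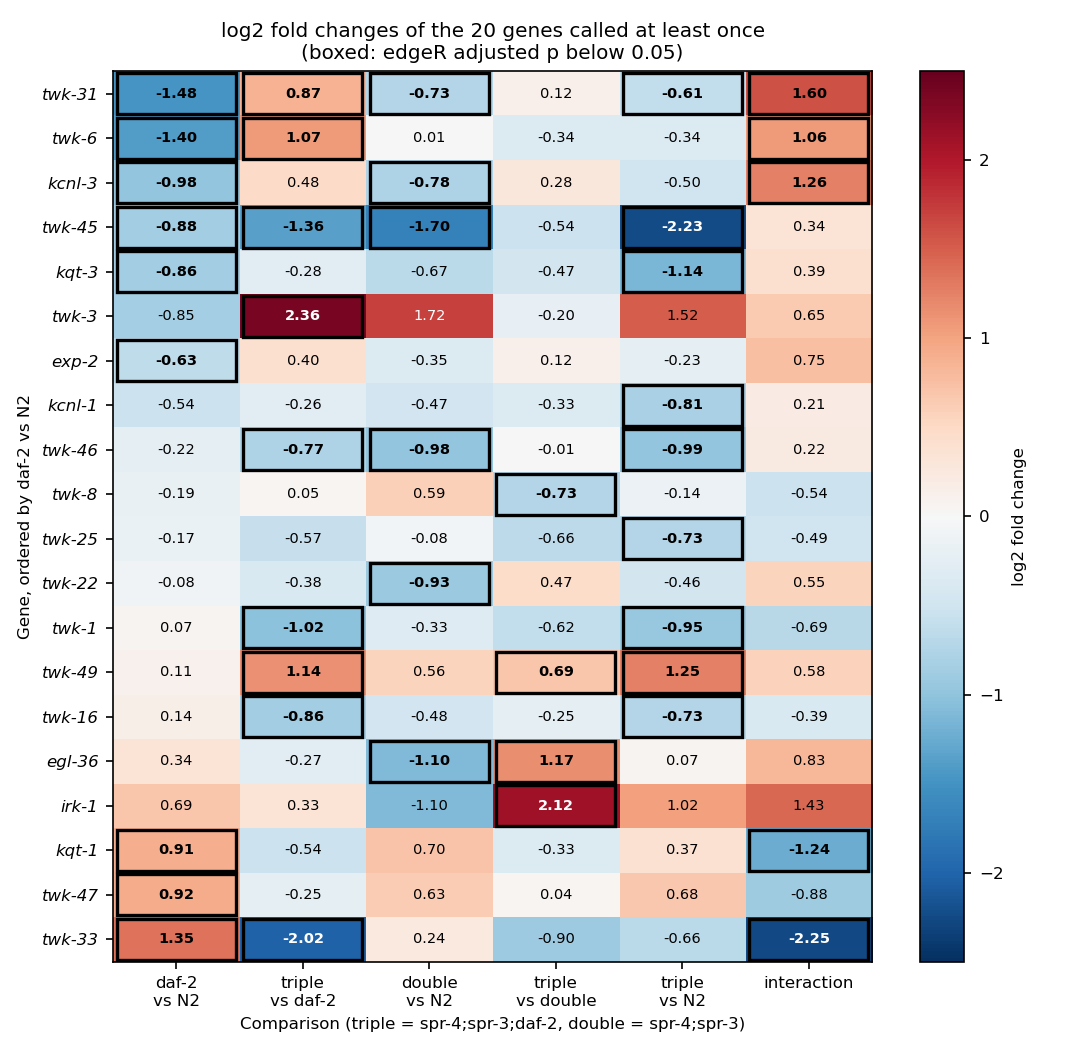
Heat map of the log2 changes (log2 fold changes, colour and number) of the 20 members that passed at least once, genes as rows and the 6 comparisons as columns; boxed cells have an edgeR adjusted p below 0.05. twk-31 has -1.48 in daf-2 over N2 and 0.87 in triple-mutant over daf-2 worms, while twk-45 is below 0 in the 5 comparisons of genotypes.

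The effect of the spr-4 and spr-3 mutations was thus measured in 2 backgrounds whose libraries are not shared. Of the 9 members that passed in triple-mutant worms against daf-2 and the 6 that passed in double-mutant worms against N2, 3 are the same, 33.3% of the first list and 50% of the second. Over all genes 655 were called in both, 26.6% of the first list and 30.6% of the second. twk-45 and twk-46 were lower in both. twk-31 was higher in triple-mutant worms relative to daf-2 and lower in double-mutant worms than in N2. Across the 68 members the log2 changes of the 2 comparisons had a Pearson r of 0.28, and across all 18342 genes 0.22. This is given as a description over genes, which are not independent replicates.

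**Figure D4:**
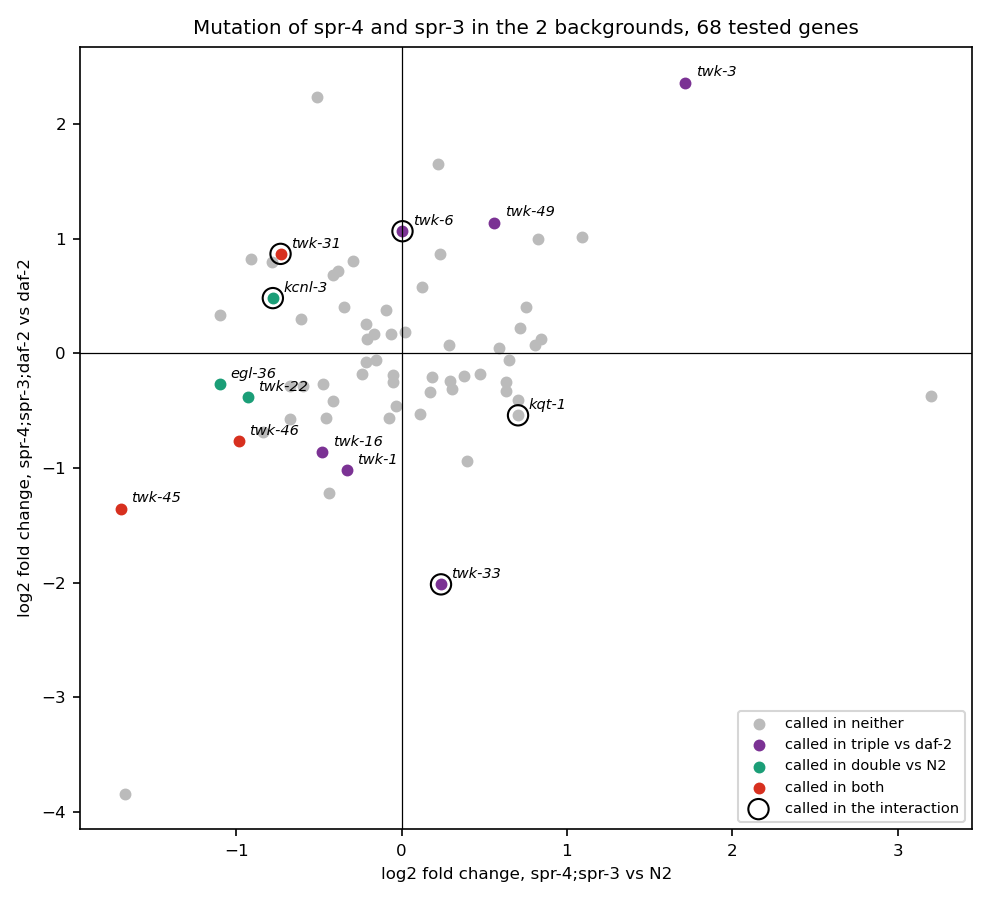
Log2 change of each of the 68 tested members with the spr-4 and spr-3 mutations: vertical in the daf-2 background, horizontal in the wild-type one; colours mark which comparison called the gene and open circles mark a called interaction. twk-45 is low on both axes (-1.36 and -1.70), and twk-31 has opposite signs (0.87 and -0.73).

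Whether the effect of the spr-4 and spr-3 mutations depended on daf-2 was tested by the interaction, the log2 change in the daf-2 background minus that in the wild-type background. It passed for 5 of 68 members (7.35%), 3 positive and 2 negative, against 8.32% of all genes (4.89% positive and 3.43% negative). twk-31 had the smallest p, with an interaction of 1.6 ± 0.19 (edgeR adjusted p = 0.00038), and it passed without any 1 library. Its levels were 104.3 ± 5.81 CPM in triple-mutant worms, 57.2 ± 2.60 in daf-2, 96.1 ± 19.04 in double-mutant worms and 159 ± 8.64 in N2 (SD, n = 3 each). Triple-mutant and double-mutant worms overlapped, while daf-2 and N2 lay on either side of them.

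twk-6 had a positive interaction of 1.06 ± 0.26 (edgeR adjusted p = 0.0217) and kcnl-3 one of 1.26 ± 0.32 (edgeR adjusted p = 0.0234). In twk-6 double-mutant libraries (19.6, 33.1 and 22.6 CPM) spanned N2, whose libraries had 24.6 to 25.3 CPM on both sides. In kcnl-3 triple-mutant libraries had 9.21, 6.51 and 9.45 CPM, and 1 of them lay within the daf-2 range of 4.83 to 7.30 CPM. twk-33 had a negative interaction of -2.25 ± 0.55 (edgeR adjusted p = 0.0198), with double-mutant libraries of 4.05, 2.09 and 6.09 CPM around the N2 values. kqt-1 had an interaction of -1.24 ± 0.32 (edgeR adjusted p = 0.0239), and its triple-mutant libraries had 8.66, 5.12 and 6.63 CPM, against 8.84, 8.65 and 8.16 CPM in double-mutant worms. clec-266, which overlaps kqt-1 on the other strand, had an interaction of -0.83 (edgeR adjusted p = 0.193) and was lower in triple-mutant worms relative to daf-2 (log2 change -1, edgeR adjusted p = 0.0224). In the interaction 3 of 8 germline and 2 of 10 body wall muscle markers were positive, 3 of 16 neuronal markers were negative, and 2 of 10 intestinal markers were positive and 1 negative, and their part in these results was not tested.

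These 4 interactions were lost without certain libraries. twk-6 was lost without daf-2 replicate 2 or 3 or double-mutant replicate 1 or 3 (edgeR adjusted p 0.0516 to 0.0599), and twk-33 without daf-2 replicate 3 or double-mutant replicate 3 (edgeR adjusted p 0.0529 to 0.0645). kcnl-3 was lost without triple-mutant replicate 1 or 3, daf-2 replicate 1 or 2, double-mutant replicate 1 or N2 replicate 1 (edgeR adjusted p 0.0531 to 0.0645). kqt-1 was lost without triple-mutant replicate 2 or 3, daf-2 replicate 1 or 2, double-mutant replicate 1 or N2 replicate 3 (edgeR adjusted p 0.0524 to 0.0653). For twk-45 and twk-46 the interaction was 0.34 (edgeR adjusted p = 0.537) and 0.22 (edgeR adjusted p = 0.73), so a different effect in the 2 backgrounds was not detected, which does not show that the effects are equal.

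The effect of the daf-2 mutation in worms that also carry those in spr-4 and spr-3 was read from triple-mutant against double-mutant worms. It gave 4 calls among the members, 3 higher and 1 lower (5.88%, against 14.9% of all genes, 7.02% higher and 7.92% lower), and the libraries did not overlap for 9 members (13.2%, against 30.7%). The median log2 change was 0.07 for the members and 0.01 for all genes. None of the 9 members that passed in daf-2 against N2 passed here, the shared count being 0. Over all genes 1238 were called in both, 45.2% of those called here and 32.8% of those called in daf-2 against N2. The log2 changes of these 2 comparisons had a Pearson r of 0.18 across the members and 0.37 across all genes, again a description over genes.

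irk-1, the inward rectifier known from the egg-laying HSN neurons, had 6.27, 3.68 and 7.04 CPM in triple-mutant worms, against 1.36, 2.15 and 0.41 CPM in double-mutant worms. All triple-mutant libraries lay above double-mutant worms (log2 change 2.12 ± 0.45, edgeR adjusted p = 0.00451). The call was kept without any 1 library, with a log2 change of 2.72 without double-mutant replicate 2 and 1.68 without double-mutant replicate 3. egl-36 had 6.13, 4.28 and 4.31 CPM in triple-mutant worms, against 2.201, 2.84 and 1.50 CPM in double-mutant worms (log2 change 1.17 ± 0.32, edgeR adjusted p = 0.0217). In daf-2 and N2 irk-1 lay at 4.05 to 5.21 and 2.24 to 3.34 CPM, and its interaction of 1.43 did not pass (edgeR adjusted p = 0.172). Summed body wall muscle markers were at 2970 to 3356 CPM in triple-mutant worms, against 1066 to 2027 CPM in double-mutant worms (3 of 10 markers higher), summed intestinal markers at 437 to 628 against 1015 to 1625 CPM (4 of 10 lower), summed pharyngeal muscle markers at 117 to 197 against 145 to 158 CPM (2 of 5 lower) and summed neuronal markers at 471 to 508 against 520 to 605 CPM (1 of 16 higher, 2 lower), and their part in these results was not tested.

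twk-49 had 13.1, 15.6 and 14.2 CPM in triple-mutant worms, against 9.54, 8.98 and 8.13 CPM in double-mutant worms (log2 change 0.69 ± 0.21, edgeR adjusted p = 0.0391). The overlapping T28D9.1 had a log2 change of 0.24 (edgeR adjusted p = 0.337). twk-8 was the gene that was lower, at 14.7 ± 1.58 CPM in triple-mutant worms and 24.4 ± 4.55 CPM in double-mutant worms (SD, n = 3 each; log2 change -0.73 ± 0.20, edgeR adjusted p = 0.0239). egl-36 was lost without triple-mutant replicate 1 or double-mutant replicate 1 or 3 (edgeR adjusted p 0.0570 to 0.105), and twk-8 without triple-mutant replicate 1 or 3 or double-mutant replicate 1 or 3 (edgeR adjusted p 0.0523 to 0.107). twk-49 was lost without any triple-mutant or double-mutant library or daf-2 replicate 1 or 3 (edgeR adjusted p 0.0511 to 0.139), without the filter on low counts (edgeR adjusted p = 0.0581) and with the column ending as a term (edgeR adjusted p = 0.0708).

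Against N2, triple-mutant worms had 1 member higher and 8 lower (13.2%, against 22.2% of all genes, 10.8% higher and 11.3% lower), with a median log2 change of 0.04 for the members and for all genes. The libraries did not overlap for 20 members (29.4%, against 38.9%). Among the 9 members called, twk-45 had the lowest log2 change, at 6.57 to 7.61 CPM in triple-mutant worms and 25.6 to 41.1 CPM in N2 (log2 change -2.23 ± 0.22, edgeR adjusted p = 1.94e-06). twk-46 (log2 change -0.99 ± 0.22, edgeR adjusted p = 0.00337), twk-31 (-0.61 ± 0.14, edgeR adjusted p = 0.00392) and kqt-3 (-1.14 ± 0.27, edgeR adjusted p = 0.00619) were also lower. kqt-3 had 4.40, 10.53 and 7.80 CPM in triple-mutant worms, against 13.7, 17.5 and 19.04 CPM in N2.

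twk-49 was the member that edgeR called higher, with 13.1 to 15.6 CPM in triple-mutant worms and 4.66 to 8.07 CPM in N2 (log2 change 1.25 ± 0.22, edgeR adjusted p = 0.000574). T28D9.1, which overlaps it on the other strand, was also higher here (log2 change 1.01, edgeR adjusted p = 0.000191), and the reads of the shared 608 bp cannot be assigned. The calls for twk-45, twk-46, twk-31, kqt-3 and twk-49 were kept without any 1 library. Summed intestinal markers were at 437 to 628 CPM in triple-mutant worms, against 1659 to 2333 CPM in N2, with 7 of 10 markers lower. Summed body wall muscle markers were at 2970 to 3356 CPM in triple-mutant worms, against 2095 to 2608 CPM in N2 (2 of 10 higher, 1 lower). Summed hypodermal markers were at 59.8 to 80.1 CPM, against 127 to 224 CPM in N2 (2 of 4 tested higher, 1 lower), summed neuronal markers at 471 to 508 CPM, against 517 to 549 CPM in N2 (2 of 16 higher, 1 lower), and summed pharyngeal muscle markers at 117 to 197 CPM, against 147 to 241 CPM in N2 (3 of 5 lower). The part of these tissues in the channel results was not tested. kcnl-1, an SK type gene, averaged 7.09 ± 1.12 CPM in triple-mutant worms and 12.4 ± 2.12 CPM in N2 (edgeR adjusted p = 0.0363). twk-1 averaged 8.82 ± 3.21 and 17.1 ± 4.92 CPM (edgeR adjusted p = 0.0149), and its libraries overlapped. twk-16 averaged 6.42 ± 1.28 and 10.6 ± 2.01 CPM (edgeR adjusted p = 0.0328), and twk-25 5.84 ± 1.87 and 9.66 ± 1.12 CPM (edgeR adjusted p = 0.0489; SD, n = 3 each).

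kcnl-1 was lost without triple-mutant replicate 1 or 3 or N2 replicate 1 or 2 (edgeR adjusted p 0.0857 to 0.124). twk-1 was lost without triple-mutant replicate 1 or 3 or N2 replicate 3 (edgeR adjusted p 0.0681 to 0.0722), and twk-16 without triple-mutant replicate 1 or 2 or N2 replicate 3 (edgeR adjusted p 0.0922 to 0.145). twk-25 was lost without triple-mutant replicate 2 or 3, daf-2 replicate 1 or 3, double-mutant replicate 3 or any N2 library (edgeR adjusted p 0.0521 to 0.168). With the column ending as a term, kcnl-1 (edgeR adjusted p = 0.0591), twk-16 (edgeR adjusted p = 0.0607) and twk-25 (edgeR adjusted p = 0.0585) did not pass.

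Over the 6 comparisons 20 members passed at least once and 49 did not (twk-44, untested, among them). That is 29.4% of the 68 tested, against 40.6% of all genes tested. By family the 20 were 13 of 46 tandem pore genes, 4 of 14 voltage-gated, 2 of 6 ion-activated and 1 of 3 inward rectifier genes. twk-31 passed in 5 comparisons and twk-45 in 4. Of 16 channels with a well-known role, 6 passed at least once (egl-36, exp-2, kqt-1, kqt-3, irk-1 and kcnl-1). The other 10 were slo-1, slo-2, shk-1, the Shal channel gene shl-1, the EAG channel gene egl-2, the ERG channel gene unc-103, unc-58, sup-9, the muscle leak channel gene twk-18 and the SK type gene kcnl-2. slo-2 averaged 25.8 ± 4.76 CPM in triple-mutant worms, 26.9 ± 1.50 in daf-2, 23.4 ± 4.10 in double-mutant worms and 26.0 ± 8.16 in N2 (SD, n = 3 each). slo-1 averaged 6.12 ± 0.538, 7.10 ± 1.74, 6.497 ± 2.17 and 4.99 ± 1.89 CPM, and shk-1 15.8 ± 2.69, 14.1 ± 1.99, 12.6 ± 3.24 and 14.1 ± 4.76 CPM in the same order. For these 3 genes the ranges of mean ± SD overlapped between all genotypes. Of these 10, sup-9 came nearest to the threshold, at 7.23 ± 0.822 CPM in daf-2 and 11.9 ± 3.17 CPM in N2 (log2 change -0.71 ± 0.25, edgeR adjusted p = 0.0521), and DESeq2 called it (adjusted p = 0.0281).

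Summed over all 69 genes, potassium channel mRNA came to 513 to 541 CPM in triple-mutant worms, 498 to 552 in daf-2, 512 to 566 in double-mutant worms and 627 to 704 in N2 with TMM scaling, whereas per raw library total the sums were 503 to 542, 500 to 576, 569 to 618 and 557 to 595 CPM, so that N2 stood above all 3 mutants under the scaled library sizes, while per raw total it stood above triple-mutant worms and overlapped daf-2 and double-mutant worms. twk-31 made up 18.3 to 20.8% of the sum in triple-mutant worms, 10.6 to 11.6% in daf-2, 16.3 to 20.9% in double-mutant worms and 21.6 to 26.9% in N2, a share that does not depend on the scaling. The daf-2 libraries lay below those of the other genotypes in this share. Without twk-31 the TMM-scaled sums were 407 to 437 CPM in triple-mutant worms and 444 to 493 CPM in daf-2. They were 426 to 448 CPM in double-mutant worms and 460 to 552 CPM in N2. With TMM scaling and without that gene, N2 overlapped daf-2 and stood above triple-mutant and double-mutant worms. Sums without twk-31 were not made per raw library total, so this order is given for TMM scaling only.

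A list of 23 genes, most of them partners of potassium channels or carriers that keep the potassium gradient, was counted, and 22 were tested. In daf-2 against N2 1 was higher and 2 were lower, in triple-mutant worms against daf-2 1 and 2, in triple-mutant against double-mutant worms 0 and 1, in triple-mutant worms against N2 1 and 2, and in the interaction 1 and 0. In double-mutant worms against N2 edgeR called 0 (4 higher and 3 lower at an unadjusted p under 0.05, and DESeq2 called 1 higher and 2 lower). In triple-mutant against double-mutant worms 2 were higher at an unadjusted p under 0.05 and DESeq2 called 2, and in the interaction 2 were negative at an unadjusted p under 0.05 and DESeq2 called 1. The shares of all genes called in these comparisons were 20.6% in daf-2 against N2, 13.4% in triple-mutant worms against daf-2, 14.9% in triple-mutant against double-mutant worms, 22.2% in triple-mutant worms against N2, 8.32% in the interaction and 11.7% in double-mutant worms against N2. ctn-1, the alpha-catulin that places SLO-1 channels in the membrane, averaged 37.4 ± 3.51 CPM in triple-mutant worms, 51.1 ± 1.90 in daf-2, 54.6 ± 6.14 in double-mutant worms and 54.3 ± 2.96 in N2 (SD, n = 3 each). Its triple-mutant libraries lay below all others. It was lower against double-mutant worms (log2 change -0.54, edgeR adjusted p = 0.00882) and N2 (-0.54, edgeR adjusted p = 0.00607) and kept these calls without any 1 library, while the call against daf-2 (-0.45, edgeR adjusted p = 0.0275) was lost without triple-mutant replicate 2 or 3 or any daf-2 library (edgeR adjusted p 0.0612 to 0.0983) and without the filter on low counts (edgeR adjusted p = 0.0664).

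The remaining partner calls were less steady. mps-3, a KCNE-like subunit, had 2.64 to 3.50 CPM in daf-2 and 0.884 to 1.91 CPM in N2 (log2 change 1.16 ± 0.36, edgeR adjusted p = 0.0311), a call lost without any daf-2 library or N2 replicate 2 or 3 (edgeR adjusted p 0.0512 to 0.125), without the filter on low counts (edgeR adjusted p = 0.0636) and with the column ending as a term (edgeR adjusted p = 0.128). kcc-2, a potassium-chloride cotransporter, had 61.8 to 90.6 CPM in daf-2 and 95.3 to 123 CPM in N2 (log2 change -0.64 ± 0.18, edgeR adjusted p = 0.0166), a call lost without daf-2 replicate 1 or 3 or N2 replicate 3 (edgeR adjusted p 0.0617 to 0.087) and with the column ending as a term (edgeR adjusted p = 0.144). sup-10, which works with sup-9, had 4.48 to 9.14 CPM in triple-mutant worms and 10.4 to 13.9 CPM in N2 (log2 change -0.91 ± 0.27, edgeR adjusted p = 0.0236), lost without triple-mutant replicate 1 or 3 or N2 replicate 2 (edgeR adjusted p 0.0914 to 0.109). nkcc-1, a sodium-potassium-chloride cotransporter, had an interaction of 1.00 ± 0.26 (edgeR adjusted p = 0.0272). Its libraries had 186 to 252 CPM in triple-mutant worms, 140 to 175 in daf-2, 128 to 200 in double-mutant worms and 177 to 240 in N2, and the call was lost without triple-mutant replicate 1 or 3, daf-2 replicate 1 or 3, double-mutant replicate 1 or 3 or N2 replicate 2 or 3 (edgeR adjusted p 0.0509 to 0.077).

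Of the subunits of the sodium-potassium pump, nkb-1 had 23.04 to 29.3 CPM in daf-2 and 34.6 to 35.6 CPM in N2 (log2 change -0.47 ± 0.15, edgeR adjusted p = 0.0316). That call was lost without daf-2 replicate 1 or 3 or any N2 library (edgeR adjusted p 0.0634 to 0.124), without the filter on low counts (edgeR adjusted p = 0.0588), with the column ending as a term (edgeR adjusted p = 0.0890) and with the replicate block over all 12 libraries (edgeR adjusted p = 0.0528). nkb-2 had 0.734, 0.0788 and 0.0479 CPM in triple-mutant worms, against 1.93, 1.77 and 2.11 CPM in daf-2 (log2 change -2.81 ± 0.86, edgeR adjusted p = 0.0387), and the call was lost without triple-mutant replicate 2 or 3 or any daf-2 library (edgeR adjusted p 0.0776 to 0.117) and with the column ending as a term (edgeR adjusted p = 0.0589). In 2 of the triple-mutant libraries nkb-2 was at or under the level of 3 counts. kcc-3, a potassium-chloride cotransporter, had 20.4 to 29.6 CPM in triple-mutant worms and 11.2 to 18.8 CPM in daf-2 (log2 change 0.68 ± 0.20, edgeR adjusted p = 0.0343), lost without triple-mutant replicate 1 or 3 or daf-2 replicate 1 or 3 (edgeR adjusted p 0.0790 to 0.159) and with the column ending as a term (edgeR adjusted p = 0.0582). mps-3 was also higher in triple-mutant worms, at 2.66 to 4.20 CPM against 0.884 to 1.91 CPM in N2 (log2 change 1.22 ± 0.36, edgeR adjusted p = 0.0214), lost without triple-mutant replicate 2 or N2 replicate 2 or 3 (edgeR adjusted p 0.0593 to 0.0952).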

How the data were processed

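RNA of whole worms at day 10 was sequenced in 12 libraries. Per the labels' protocols, cDNA was made with SMART-Seq v4 from 2 ng of RNA, sheared to a mean of 150 bp and read as paired ends of 75 bp, a protocol that does not mark strand or single molecules. Per the submitters' processing notes, reads were processed with STAR (version not given in the sources used here) and featureCounts 1.5.1 on WBcel235. The authors deposited raw counts per gene, with no normalization. Neither the annotation release nor the strand setting nor the handling of multiply mapped reads is given in the sources used here.

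Symbols, exon lengths and overlaps were taken from Ensembl release 115 of WBcel235, and 43720 of 46739 genes had a symbol. edgeR 4.0.16 (R 4.3.3) was fitted once to the 12 libraries, 1 mean for each genotype, after filterByExpr (minimum count 10, minimum total 15; 18342 genes) and TMM scaling. Quasi-likelihood F-test p-values were Benjamini-Hochberg adjusted over the whole tested table, and those below 0.05 were called whatever the fold. Standard errors are log2 fold changes over the square root of F. The common biological coefficient of variation was 0.291. Alternatives were DESeq2 1.42.0, its size factors in edgeR, no filter on low counts, the replicate number as a block, each library left out, and, chosen after seeing the data, the ending of the column name as a term and a fit of the daf-2 and N2 libraries alone with and without the block. Deviations from the genotype means of same-numbered daf-2 and N2 libraries had r = 0.13, 0.17 and 0.10. The labels give no pairing and values this small do not establish one, so the main fit used no block. Scripts were tested on simulated counts. The 69 members and the gene lists were chosen with earlier results of these data known. Named genes are members that passed in at least 1 comparison, 16 well-known channels and list genes that passed. twk-5, kvs-3, kqt-2, T28D9.1, clec-266 and rol-6 were added after their values were seen. Of the 69 members 36 share exon bases with another gene, 10 of the 20 called ones among them. Protein and promoter sequences were not used here. Replicates are biological per the series' design.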

Additional observations from a re-analysis of the deposited data

Results flagged for a closer look

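In 5 potassium channel genes the effect of the spr-4 and spr-3 mutations in the daf-2 background differed from that in the wild-type background by edgeR's interaction test. That is 7.35% of the 68 tested, against 8.32% of all genes. Only the call for twk-31 was kept without any 1 library. The interaction, in log2 units, was 1.6 for twk-31 (edgeR adjusted p = 0.00038), 1.26 for kcnl-3 (edgeR adjusted p = 0.0234), 1.06 for twk-6 (edgeR adjusted p = 0.0217), -1.24 for kqt-1 (edgeR adjusted p = 0.0239) and -2.25 for twk-33 (edgeR adjusted p = 0.0198). A positive value means a higher fold change in the daf-2 background. Of these, twk-31 had effects of opposite sign that each passed, 0.87 in triple-mutant worms against daf-2 and -0.73 in double-mutant worms against N2.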

How the results depend on the processing

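The number of potassium channel genes called stayed within 1.5 times its value under DESeq2, its size factors, the replicate block and the column ending, and without the filter on low counts except in double-mutant worms against N2, where 11 genes were called against 6. Leaving out 1 library at a time gave 5 to 11 calls in daf-2 against N2, 5 to 9 in triple-mutant worms against daf-2, 3 to 10 in double-mutant worms against N2, 2 to 5 in triple-mutant against double-mutant worms, 6 to 11 in triple-mutant worms against N2 and 2 to 6 in the interaction. The count of channel genes moved by over 1.5 times in 5 comparisons. It came to 5 in daf-2 against N2 without daf-2 replicate 1 or 3 or N2 replicate 3, and to 5 in triple-mutant worms against daf-2 without triple-mutant replicate 1 or daf-2 replicate 2. It came to 10 in double-mutant worms against N2 without double-mutant replicate 2 and to 3 without double-mutant replicate 3 or N2 replicate 3, and to 2 in triple-mutant against double-mutant worms without triple-mutant replicate 3 or double-mutant replicate 1 or 3. In the interaction it came to 3 without triple-mutant replicate 3, daf-2 replicate 1 or 3 or double-mutant replicate 3 and to 2 without daf-2 replicate 2 or double-mutant replicate 1. The cause of these shifts was not tested beyond the fewer samples in each fit. In triple-mutant worms against N2, 1 gene was higher by edgeR, 2 by DESeq2 and 4 without the filter on low counts. In triple-mutant against double-mutant worms, 1 gene was lower by edgeR and 3 without the filter. In daf-2 against N2, 3 genes were higher over the 12 libraries, 1 with the column ending as a term and 5 in the fit of the daf-2 and N2 libraries alone. That fit called 13 genes, and 14 with the replicate block, against 9 over the 12 libraries. It was chosen after seeing the data, and the share of all genes it called is not given here. Over all genes the interaction had 1526 calls by edgeR and 2329 by DESeq2. Leaving out 1 library at a time gave, over all genes, 2600 to 4132 calls in daf-2 against N2, 1376 to 2841 in triple-mutant worms against daf-2, 943 to 3139 in double-mutant worms against N2, 1582 to 3303 in triple-mutant against double-mutant worms, 2931 to 4313 in triple-mutant worms against N2 and 772 to 2505 in the interaction, so the shares of all genes move with single libraries too. Without 1 library the all-gene count moved by over 1.5 times in 4 comparisons. It was 1525, 1568 and 1376 without triple-mutant replicate 3 and daf-2 replicates 2 and 3 in triple-mutant worms against daf-2. It was 1030, 943, 1048 and 1011 without double-mutant replicates 1 and 3 and N2 replicates 1 and 3 in double-mutant worms against N2, and 1693 and 1582 without triple-mutant replicate 3 and double-mutant replicate 3 in triple-mutant against double-mutant worms. In the interaction it was 923 without triple-mutant replicate 3, 925 and 772 without daf-2 replicates 2 and 3, 940, 2505 and 948 without double-mutant replicates 1, 2 and 3, and 958 and 974 without N2 replicates 1 and 3.

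Of the 42 calls of members over the 6 comparisons, 20 were kept without any 1 library, 42 with DESeq2, 42 with its size factors in edgeR, 39 without the filter on low counts and 32 with the column ending as a term, and 0 changed sign. With the other size factors the median log2 fold change of all genes moved by under 0.05 in each comparison. Both scalings assume that most genes do not differ, so their closeness does not test that assumption. TMM factors were 0.941 to 1.002 in triple-mutant worms, 0.990 to 1.052 in daf-2, 1.005 to 1.207 in double-mutant worms and 0.846 to 0.914 in N2. Same-numbered libraries of different genotypes deviated together with r from -0.21 to 0.17, above 0.1 in 4 of 18 pairs, 3 of which are the 3 pairs of daf-2 and N2; 2 of 12 libraries correlated best with their own number. Values this small do not establish pairs, so the main fit had no block and the block served as an alternative only. With the replicate number as a block, 8, 9, 6, 4, 9 and 5 members passed in these comparisons, in the order given above, and of the calls of members the block ended those for exp-2 in daf-2 against N2 (edgeR adjusted p = 0.0598) and twk-25 in triple-mutant worms against N2 (edgeR adjusted p = 0.0655). Among the partner genes it also ended the calls for nkb-1 in daf-2 against N2 (edgeR adjusted p = 0.0528) and kcc-3 in triple-mutant worms against daf-2 (edgeR adjusted p = 0.0585). Within the daf-2 and N2 libraries alone, the block ended none of the 9 calls of members. Depth limits the scarce members: 10 of the 69 averaged under 1 CPM, and 0 of those were called.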
